A study of Coturnix japonica with 19 samples.

Results

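The myocyte enhancer factor 2 (MEF2) transcription factors were followed in the pituitary gland of Japanese quail (Coturnix japonica). The members were chosen by name: MEF2A, MEF2C and MEF2D are 3 of the 19562 gene symbols listed, and they hold 73 of the 63260 transcripts listed, with 15 for MEF2A, 24 for MEF2C and 34 for MEF2D. MEF2B, the remaining vertebrate family member, was not analysed here. No member passed the test for photoperiod or for age. MEF2C was highest in 2 of the 5 8L juveniles, whose libraries were rich in bone genes and poor in pituitary hormone genes, and MEF2D rested on few counts.

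MEF2 proteins bind A/T-rich DNA through a MADS box and a MEF2 domain and can either repress or activate the genes they sit on. Class IIa histone deacetylases hold them in a repressive state, and calcium signals that act through calmodulin-dependent kinases and calcineurin, together with p38 and ERK5 MAP kinases, shift them to activation. They are best known for muscle differentiation and for activity-dependent transcription in neurons, and in the mouse MEF2C is also needed for cartilage growth plates to mature into bone. The study plotted MEF2A and MEF2D among a few genes of the pituitary and reported that neither differed significantly between its groups. The question taken up here is whether the level of any MEF2 gene, MEF2C included, differed with photoperiod or with age.

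Each of the 19 birds gave 1 library of the pituitary gland, read as PCR-amplified cDNA on a Nanopore sequencer. The 5 adults under 16 h of light and 8 h of dark (16L) and the 5 adults under 8 h of light and 16 h of dark (8L) were males that began in long days at 5 weeks of age and had spent 8 weeks in their final photoperiod. By the design text the 16L adults had first passed through short days, so that light history and age came together with photoperiod in the adults. The 4 juveniles under 16L and the 5 under 8L had all spent their first 5 days in long days, then 5 days in their assigned photoperiod, and were taken at posthatch day 10, so that among juveniles the 8L birds alone changed photoperiod. The study lists 3 of the 9 juveniles as females. Where a p-value is given it measures the spread between these birds, each of which is called by its group and its number in the labels.

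Library totals ran from 128509 to 4796665 estimated counts in adults and from 90599 to 1074139 in juveniles, and 5 libraries, 4 of them from juveniles, held under 200000. Values are given as counts per 1000000 (CPM) after TMM scaling, with the transcripts of a gene summed. They cannot be set side by side between genes, because a sum may count 1 read once for each of several transcripts, as described below. The summed CPM of 15 pituitary cell markers, among them the hormone genes GH, PRL, POMC and CGA, lay between 16840 and 91990 in 17 birds, and at 3073 and 9273 in 8L juveniles 1 and 5. In the same 8L juveniles 1 and 5, the 12 osteoblast and osteocyte markers found (of 13 listed) summed to 14060 and 13740 CPM, against 34.0 to 56.3 in the 10 adults and 125 to 4271 in the other 7 juveniles. Their 17 cartilage markers (of 19 listed) summed to 7226 and 3408 CPM, against 159 to 1237 in all others. Within the adult sums SOX6 averaged 547 CPM under 16L and 587 under 8L, and SOX5 253 and 236. The cartilage collagen genes COL2A1 and COL9A1 had counts in 8L juveniles only. The 8L juveniles 1 and 5 are called bone-rich here. Because bulk RNA was measured, a change in the cells sampled and a change of RNA per cell cannot be told apart. The part of these libraries in each result was not tested beyond fits that leave both out, which were chosen after seeing the data.

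The transcripts of a MEF2 gene had counts that lay close together in MEF2A and MEF2D, and less so in MEF2C. In adult 8L bird 2 and juvenile 16L birds 1 and 4, all 15 MEF2A transcripts held exactly the same whole number of counts, namely 3, 4 and 5, and the gene sums were therefore 45, 60 and 75. Over the birds with enough counts to tell, the median transcript stood at 0.952 of the highest one in MEF2A, 0.85 in MEF2D and 0.484 in MEF2C, where 0.925 was the median over 6597 genes with several transcripts. How reads were shared among transcripts is not given in the sources used here. The gene sums, on which the CPM values and the edgeR tests rest, may count 1 read many times, and the highest transcript count of a gene is therefore given beside its sum as a closer guide to depth.

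MEF2A was counted in 18 of the 19 birds, and it passed the test in no comparison. In 16L adults 1 to 5 it stood at 427, 357, 336, 347 and 451 CPM, and in 8L adults 1 to 5 at 552, 255, 419, 180.3 and 329 CPM. All 16L adults lay within the range of the 8L adults, which spread more widely. In 16L juveniles 1 to 4 MEF2A stood at 251, 8.61, 733 and 276 CPM, and in 8L juveniles 1 to 5 at 759, 338, 670.4, 0 and 696 CPM. The juveniles were scattered far more than the adults, and both juvenile groups overlapped with each other and with the adults. Under 16L 3 of 4 juveniles lay below every adult and 1 above. Under 8L 3 of 5 lay above every adult, among them the bone-rich 8L juveniles 1 and 5, and 1 below. The lowest values, 8.61 and 0 CPM, came from shallow libraries. The highest MEF2A transcript had 1 count in 16L juvenile 2 and 0 in 8L juvenile 4. That count of 0 allows up to 46.4 per 1000000 on the scale of highest transcripts. This lies within the 20.6 to 77.4 seen in adults under 16L and 8L together. On that scale 8L juveniles 1 and 5 stood at 48.85 and 40.05, also within the adult range, and 8L juvenile 3 at 127, above it. Limits of this kind use 3 counts in 1 library and cover counting error only.

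Group means of MEF2A were 384 ± 52.0 CPM (SD, n = 5) in 16L adults, 347 ± 145 (SD, n = 5) in 8L adults, 317 ± 302 (SD, n = 4) in 16L juveniles and 492.5 ± 320.3 (SD, n = 5) in 8L juveniles. The log2 fold change of 16L over 8L was 0.07 (SE 0.29) in adults and -0.66 (SE 1.12) in juveniles. That of juveniles over adults was -0.03 (SE 0.64) under 16L and 0.66 (SE 0.78) under 8L. Without the bone-rich 8L juveniles 1 and 5 the juvenile photoperiods gave -0.12 (SE 1.41). Juveniles over adults under 8L then gave 0.12 (SE 0.89). The standard error exceeded the fold change in each of these, and in no comparison did edgeR's adjusted p fall below 0.860 for MEF2A.

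**Figure D1:**
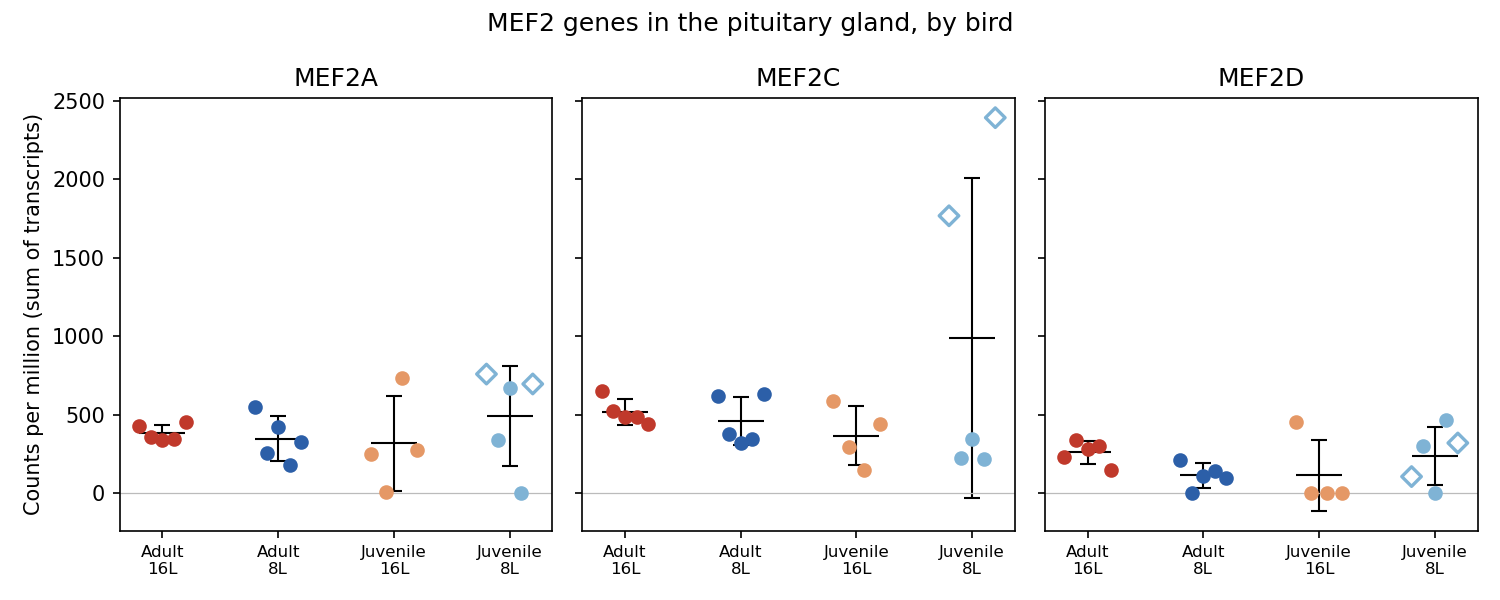
CPM (vertical axis, transcripts summed) of MEF2A, MEF2C and MEF2D in each bird, by group, with bars for the mean and SD of each group and open diamonds for 8L juveniles 1 and 5, the bone-rich libraries. In MEF2C these libraries stand at 1767 and 2392, above all 17 others, while in MEF2D 3 of the 4 16L juveniles lie at or near 0.

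MEF2C, the member with known roles in cartilage, bone and vessels, was counted in all 19 birds. In 16L adults 1 to 5 it stood at 650.4, 522, 488, 487 and 440.1 CPM, and in 8L adults 1 to 5 at 616, 379.9, 317, 348 and 632 CPM. The adult groups overlapped, with 16L adult 1 above all 8L adults. In 16L juveniles 1 to 4 it stood at 585, 293, 150.4 and 441 CPM, and in 8L juveniles 1 to 5 at 1767, 221, 346, 219.6 and 2392 CPM. Only the bone-rich 8L juveniles 1 and 5 lay above the adults, and the other 3 lay below the median of the 8L adults. The highest MEF2C transcript had 45 and 68 counts in 8L juveniles 1 and 5, against 3 to 19 in the other 7 juveniles. These counts are not corrected for depth. On the scale of highest transcripts 8L juveniles 1 and 5 stood at 146.6 and 136.2. The other 7 juveniles stood at 13.76 to 95.5 and the adults at 24.91 to 94.43. The pair thus led by less there than in CPM, where low TMM factors, 0.7169 and 0.5749, raised its values. TMM factors in the other birds ran from 0.5837 to 1.458.

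Group means of MEF2C were 517.5 ± 79.9 CPM (SD, n = 5) in 16L adults, 459 ± 153 (SD, n = 5) in 8L adults, 367 ± 187.5 (SD, n = 4) in 16L juveniles and 989 ± 1021 (SD, n = 5) in 8L juveniles. Without the bone-rich birds the mean of 8L juveniles was 262 ± 72.3 (SD, n = 3). The log2 fold change of juveniles over adults under 8L was 1.23 (SE 0.66, unadjusted p = 0.0836 and adjusted p = 0.682 from edgeR) with all birds and turned to -0.65 (SE 0.48, adjusted p = 0.992) without 8L juveniles 1 and 5. That of 16L over 8L in juveniles was -1.23 (SE 0.77, adjusted p = 0.999 from edgeR) with all birds and 0.46 (SE 0.59, adjusted p = 1.00) without them. In adults, which contain no such library, 16L over 8L gave 0.10 (SE 0.27), and under 16L juveniles over adults gave -0.19 (SE 0.40). The direction of MEF2C in the 8L juveniles thus rested on the bone-rich pair.

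**Figure D2:**
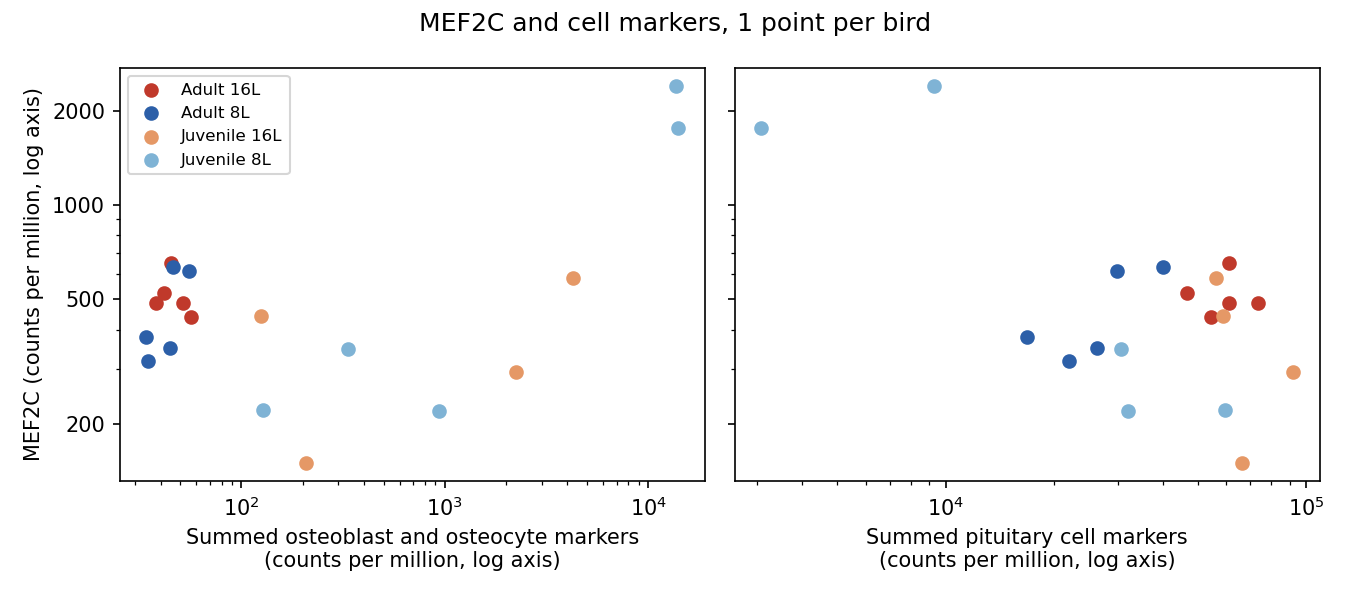
MEF2C in CPM (vertical log axis) against the summed osteoblast and osteocyte markers (left) and the summed pituitary cell markers (right), both in CPM on log axes, with 1 point per bird coloured by group. 8L juveniles 1 and 5 stand apart in both panels, with the highest MEF2C (1767 and 2392) and the lowest pituitary marker sums (3073 and 9273).

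Among the other 7 juveniles, 16L juvenile 1 had both the highest osteoblast marker sum, 4271 CPM, and the highest MEF2C, 585 CPM, which lay within the range of the adults. The next highest osteoblast sum, 2231 CPM in 16L juvenile 2, came with 293 CPM of MEF2C, below the 441 and 346 CPM of 16L juvenile 4 and 8L juvenile 3, whose osteoblast sums were 125 and 333 CPM. Endothelial and mural cell markers, of which all 16 listed had a count in some bird, summed to 249.5 and 292 CPM in the bone-rich juveniles and to 22.7 to 169 in the others. Of these sums PECAM1 held 112.8 and 104.1 CPM and ERG 71.8 and 40.6 CPM, while TEK, ESAM, CLDN5 and MCAM stood at 0 in both birds. PECAM1 averaged 85.7 ± 48.8 CPM (SD, n = 5) over all 8L juveniles, so that it was not particular to the bone-rich pair. The 13 leukocyte and microglia markers found (of 16 listed) summed to 253 and 228.5 CPM in the bone-rich juveniles against 0 to 121. Skeletal muscle markers, 10 of 15 found, stood at 6.84 and 22.9 CPM in the bone-rich juveniles and were highest in 8L juvenile 3, at 877 CPM. The summed counts of this list were mostly NEB, with 1238 over all birds against at most 64 for any other marker of it. Such sums may count 1 read many times, and unequally between genes. The number of reads behind NEB is not given here. MEF2C stood at 346 CPM in 8L juvenile 3. The part of these cell types in the MEF2C level was not tested.

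MEF2C is annotated on the Z chromosome of the quail genome (assembly Coturnix japonica 2.1), of which male birds carry a pair and females a single copy, whereas MEF2A and MEF2D are annotated on chromosomes 10 and 25. The juveniles listed as females had 293 and 441 CPM of MEF2C under 16L and 221 under 8L, all inside the range of the juveniles listed as males, 150.4 to 2392 CPM. HINTW, which lies on the W chromosome that females alone carry, was counted in 16L juveniles 3 and 4 and 8L juvenile 2, with 120, 67 and 307 counts, which goes against the listed sex of 2 of the 9 juveniles (16L juveniles 2 and 3). Taken by HINTW instead, the 3 juveniles with counts of it had 150.4, 441 and 221 CPM of MEF2C and the 6 without had 219.6 to 2392 CPM, so that 1 of the 3 lay below all 6. In a fit of listed males alone, MEF2C gave a log2 fold change of 1.50 (SE 0.61) for juveniles over adults under 8L. The unadjusted p was 0.0299 and the adjusted p 0.319, both from edgeR. Under 8L that fit left out juvenile 2 alone and kept the bone-rich pair. The part of sex in this value was not tested.

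MEF2D had the fewest counts, and its highest transcript held 0 to 42 counts per bird. In 16L adults 1 to 5 it stood at 228, 340.2, 282, 300.3 and 148 CPM, and in 8L adults 1 to 5 at 214, 0, 113, 143 and 99.1 CPM. In MEF2D 4 of 5 16L adults lay above every 8L adult in CPM, and 16L adult 5 lay among them, so that the groups overlapped. The overlap was wider per 1000000 on the scale of highest transcripts. There 16L adults 1 to 5 stood at 18.9, 10.8, 14.9, 16.65 and 8.49. The 8L adults 1 to 5 stood at 12.7, 0, 7.49, 15.8 and 8.15. The 16L adults averaged 259.5 ± 74.5 CPM (SD, n = 5) and the 8L adults 114 ± 77.5 (SD, n = 5), which gave a log2 fold change of 1.09 (SE 0.52, unadjusted p = 0.0551 and adjusted p = 1.00 from edgeR). The largest difference of any member in adults therefore did not pass the test. DESeq2 gave MEF2D an unadjusted p of 0.0306 there (adjusted p = 0.9998), while limma-voom gave 0 of 3 members an unadjusted p under 0.05. Without 8L adult 2, whose library held under 200000 counts, edgeR gave 0.85 (SE 0.31, unadjusted p = 0.0184 and adjusted p = 0.999). The 0 of 8L adult 2 fell in a library of 128509 counts and allows up to 44.5 per 1000000 on the scale of highest transcripts, above the 7.49 to 15.8 of the other 8L adults.

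In 16L juveniles 1 to 4 MEF2D stood at 455.5, 0, 0 and 3.68 CPM, and in 8L juveniles 1 to 5 at 106, 299, 0, 469 and 319.9 CPM. The 16L group thus held 1 high bird, with 4 counts in its highest transcript, and 3 at or near 0. The 16L juveniles averaged 115 ± 227 CPM (SD, n = 4) and the 8L juveniles 239 ± 186 (SD, n = 5), which gave a log2 fold change of -1.04 (SE 1.68, adjusted p = 0.999 from edgeR). Juveniles over adults gave -0.85 (SE 1.16, adjusted p = 0.935 from edgeR) under 16L and 1.29 (SE 0.99, adjusted p = 0.797 from edgeR) under 8L. Without 16L juvenile 1 edgeR called MEF2D lower in juveniles than in adults under 16L (adjusted p = 0.0119), as it did without the 5 libraries under 200000 counts, which leaves 2 juveniles in that group (adjusted p = 0.00155). The first call rests on 3 juveniles with 0, 0 and 1 counts in the highest transcript, and the second on 16L juveniles 3 and 4 alone, with 0 and 1. Shares of all genes called in these fits are not given here. Here 0 counts allow up to 52.1 and 8.26 per 1000000 in 16L juveniles 2 and 3, against 8.49 to 18.9 measured in 16L adults. At this depth a lower MEF2D level could be shown at most narrowly in 16L juvenile 3 and not at all in 16L juvenile 2.

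No MEF2 gene passed an adjusted p of 0.05 in any of the 8 comparisons, each fitted with edgeR's quasi-likelihood test over all genes that passed a filter on low counts, a filter that all 3 members passed each time. Between adult photoperiods 0 of 3 were called, where 0.0267% of 7478 genes tested were called. Between juvenile photoperiods 0 of 3 were called, where 0% of 2405 were. Between ages 0 of 3 were called under 16L, where 1.31% of 6641 genes were, and 0 of 3 under 8L, where 0.157% of 5106 were. Among the 4 groups 0 of 3 were called (1.41% of 7165 genes), as were 0 of 3 for photoperiod across ages (0.014%), 0 of 3 for age across photoperiods (2%) and 0 of 3 for the interaction of age and photoperiod (0%). With shares this small, 0 of 3 is near what all genes gave, and it does not show that the levels were equal.

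At an unadjusted p under 0.01, the threshold that the study applied to transcripts, the count of member genes was likewise 0 of 3 in each comparison. In edgeR fits of single transcripts 8 of MEF2C fell under it between the 8L ages, as given below without a share of all transcripts. The study also names a limit on the false discovery rate, which was not applied here. The share of all genes at that threshold was 0.669% between adult photoperiods, 0.125% between juvenile photoperiods, 4.26% between the 16L ages and 2.1% between the 8L ages. It was 4.28% among the 4 groups, 0.349% for photoperiod across ages, 5.39% for age across photoperiods and 1.21% for the interaction. The groups of every member overlapped in each of the 4 comparisons of a pair of groups, where 0.682% of genes had groups that did not overlap between adult photoperiods, 0.707% between juvenile photoperiods, 5.86% between 16L juveniles and 16L adults and 4.5% between 8L juveniles and 8L adults. At an unadjusted p under 0.05 edgeR gave 0 of 3 in each comparison as well. The share of all genes there was 3.2% between adult photoperiods, 1.83% (44 genes) between juvenile photoperiods, 9.82% between the 16L ages, 8.48% between the 8L ages, 10.3% among the 4 groups, 3.29% for photoperiod, 13.3% for age and 5.78% (414 genes) for the interaction. DESeq2 and limma-voom called 0 of 3 throughout, with at most 1 of 3 at an unadjusted p under 0.05. Shares of all genes in those fits are not given here.

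The edgeR fits on the highest transcript of each gene, chosen after seeing the data, called 0 of the 2 members that passed their filter, MEF2A and MEF2C, but MEF2C came closer to the threshold there. Of all genes these fits called 0.091% between adult photoperiods, 1.01% between the 16L ages, 0.264% between the 8L ages, 2.82% among the 4 groups, 0.0366% for photoperiod, 3.29% for age and 0.0183% for the interaction, and no member could be tested between juvenile photoperiods. Among the 4 groups the unadjusted p of MEF2C was 0.00315 (adjusted p = 0.0897), under the study's threshold of 0.01, which 5.54% of 5466 genes passed. Juveniles over adults under 8L gave MEF2C a log2 fold change of 1.63 (SE 0.59, unadjusted p = 0.0132 and adjusted p = 0.260 from edgeR), where 12.2% of 3025 genes had an unadjusted p under 0.05. For age across photoperiods it was 0.95 (SE 0.41, unadjusted p = 0.0264 and adjusted p = 0.234 from edgeR), where 15.4% of genes had such a p, and the interaction gave -1.75 (SE 0.76, unadjusted p = 0.0271 and adjusted p = 0.965 from edgeR), where 4.74% did. Without the bone-rich juveniles these 3 values of MEF2C turned to -0.37 (SE 0.49), -0.28 (SE 0.28) and 0.26 (SE 0.58), and the unadjusted p among the 4 groups was 0.606 (adjusted p = 0.945 from edgeR).

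Across photoperiods, the log2 fold change of juveniles over adults was 0.32 (SE 0.54) for MEF2A, 0.55 (SE 0.45) for MEF2C and 0.25 (SE 0.89) for MEF2D, where the median over all genes was -0.18. Without the bone-rich juveniles MEF2C turned to -0.42 (SE 0.30, adjusted p = 0.666 from edgeR). Across ages, 16L over 8L gave -0.26 (SE 0.55) for MEF2A, -0.57 (SE 0.45) for MEF2C and 0.17 (SE 0.89) for MEF2D, and the MEF2C value turned to 0.27 (SE 0.29) without the bone-rich juveniles. The difference between the photoperiod effect in juveniles and that in adults was -0.72 (SE 1.10) for MEF2A, -1.45 (SE 0.83, adjusted p = 0.936 from edgeR) for MEF2C and -2.13 (SE 1.67) for MEF2D. That of MEF2C was 0.37 (SE 0.61) without the bone-rich juveniles. That of MEF2D was past the threshold in the fit without the 5 libraries under 200000 counts (adjusted p = 0.00874 from edgeR), as was its difference among the 4 groups (adjusted p = 0.00546). Both of these calls rest on 16L juveniles 3 and 4 as the only 16L juveniles, with 0 and 1 counts in the highest MEF2D transcript. Of the 8L juveniles that fit kept 1, 2 and 5, among them the bone-rich pair.

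**Figure D3:**
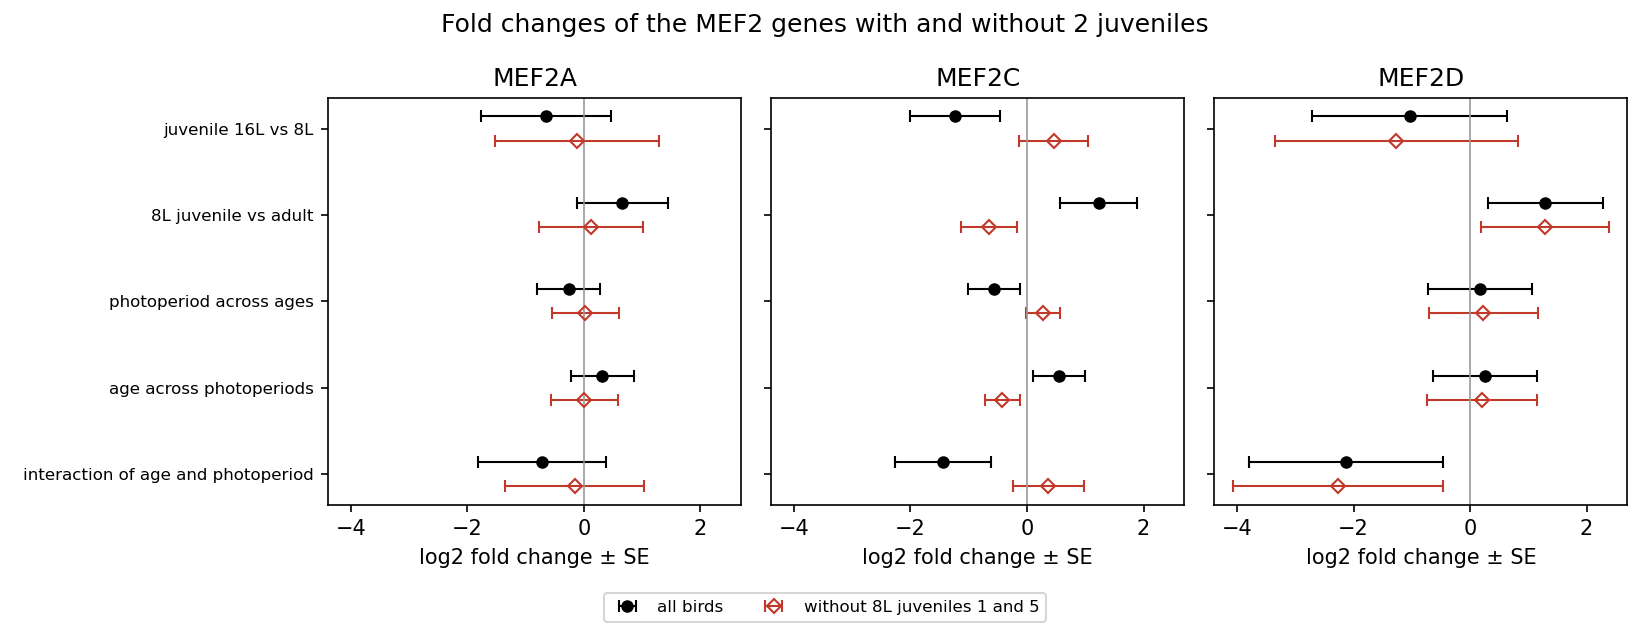
Log2 fold changes with their standard errors (horizontal axis) of the MEF2 genes in the comparisons that hold 8L juveniles (vertical axis), with all birds (filled circles) and without 8L juveniles 1 and 5 (open diamonds). In MEF2C each of the 5 values changes sign when these birds are left out, from 1.23 to -0.65 for 8L juveniles over 8L adults.

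The transcripts of MEF2C fell into sets with unlike counts, a split seen in the data and given without a test. Over all birds 8 transcripts held 551 to 619 counts each and 16 held 262 to 288 each, while the 15 of MEF2A held 408 to 464 each and 31 of the 34 of MEF2D 97 to 126 each. The mean of the lower MEF2C set stood at 38.9% to 75.9% of that of the upper set in the 10 adults (mean 55.0 ± 10.8%, SD) and at 20% to 57.1% in the 9 juveniles (mean 37.1 ± 11.7%, SD), with overlap between ages. Of the juveniles, 3 had 10 or more counts in the upper set, at 25.6%, 37.1% and 42.2%, and 8L juveniles 1 and 5 are 2 of these. In adults the share averaged 53.5 ± 15.4% (SD, n = 5) for 16L birds and 56.6 ± 4.29% (SD, n = 5) for 8L birds, a difference smaller than the spread.

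**Figure D4:**
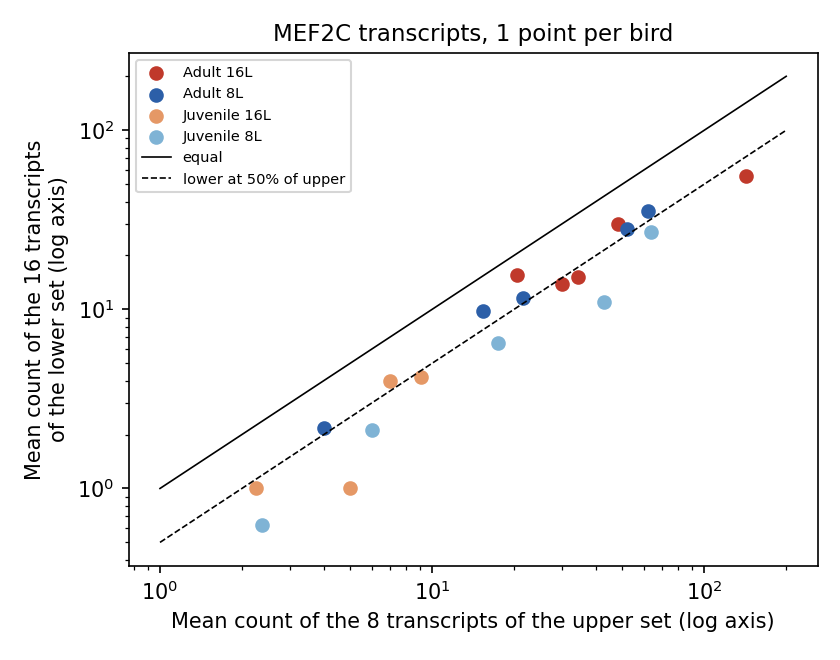
Mean count of the 16 MEF2C transcripts of the lower set (vertical log axis) against the mean count of the 8 transcripts of the upper set (horizontal log axis), with 1 point per bird coloured by group, a solid line for equal counts and a dashed line at 50%. All birds lie below the line of equal counts, the adults between 38.9% and 75.9% and the juveniles between 20% and 57.1%.

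In edgeR fits of single transcripts, all 39 transcripts of MEF2A and MEF2C passed the filter in 4 comparisons and none of MEF2D did, and between juvenile photoperiods no MEF2 transcript passed it. Of the 39, 0 were called between adult photoperiods (0.0419% of 19079 transcripts tested), 0 between ages under 16L (1.11% of 15647), 0 between ages under 8L (0.626% of 10057) and 0 for age across photoperiods (3.52% of 16075). Under 8L the 8 MEF2C transcripts of the upper set had log2 fold changes of juveniles over adults from 1.69 to 1.78, and the 16 of the lower set 0.91 to 1.04. Those 8 were the ones with an unadjusted p under 0.01, and also the 8 under 0.05, with a lowest adjusted p of 0.153 from edgeR. For age across photoperiods the same 8 had an unadjusted p under 0.05 from edgeR, and 0 were under 0.01. Shares of all transcripts at these unadjusted thresholds are not given here. Between ages under 8L, leaving out 8L juvenile 2 made 8 MEF2 transcripts pass an adjusted p of 0.05 from edgeR. That fit kept the bone-rich pair, and its share of all transcripts called is not given here. The counts of MEF2C transcripts move together within a bird, so that 8 transcripts are not 8 separate results. A test of transcript use within genes (diffSpliceDGE) called 0 of the 2 genes it could test, MEF2A and MEF2C, between adult photoperiods (0% of 2627 genes were called) and for age (0% of 2151). Since that test takes transcripts as independent, its adjusted p of 1.00 for both genes says little here.

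The genes whose level followed a member most closely over the birds were sought among 1685 genes counted in all 19 birds. For MEF2A the rank correlations (Spearman, 19 birds) were 0.88 with CHD4, a chromatin remodeller, 0.85 with CD2AP, an adaptor protein of cell junctions, 0.83 with SERBP1 and 0.81 with HNRNPDL, both RNA-binding proteins, and 0.79 with METAP2, a methionine aminopeptidase. For MEF2C they were 0.82 with PDIA6, a protein disulfide isomerase, 0.79 with RC3H1, 0.76 with DAAM2, a formin of Wnt signalling, and 0.74 with TJP1, a tight junction protein. Without the bone-rich birds these 4 of MEF2C fell to between 0.64 and 0.75 over 17 birds, and the 5 of MEF2A were between 0.74 and 0.83. The birds share depth and composition, so these values are descriptions. MEF2D, whose highest transcript had a median of 4 counts, was left out.

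Most of the listed regulators of MEF2 proteins were found, and none was called by edgeR in a comparison of a pair of groups. MAPK7, the gene of the ERK5 kinase, was not analysed here. Of all related genes tested, coactivators and targets included, 2 of 42 had an unadjusted p under 0.05 between adult photoperiods (3.2% of all genes did), 0 of 18 between juvenile photoperiods (1.83%), 3 of 37 between the 16L ages (9.82%) and 1 of 32 between the 8L ages (8.48%). Of the class IIa deacetylases and corepressors, 8 of 9 listed were found and at most 6 tested, with 0 higher and 0 lower in each of the 4 comparisons. HDAC4, the deacetylase that binds MEF2 and leaves the nucleus on calcium signals, ranged in group means from 724 ± 524 CPM (SD, n = 4) in 16L juveniles to 1271 ± 94.9 (SD, n = 5) in 16L adults. NCOR1, a corepressor that carries HDAC3, had group means from 122 to 375 CPM. The median log2 fold change of the tested genes of this list for juveniles over adults was -0.82 under 16L and -0.17 under 8L, where the medians over all genes were -0.16 and -0.09.

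Of the calcium and calcineurin genes 18 of 22 listed were found and at most 14 tested, and 0 were called in either direction in the 4 comparisons. The calmodulin gene CALM2 had group means from 332 to 451 CPM. CAMK2D, a subunit of calmodulin-dependent kinase II, had 456 ± 142 CPM (SD, n = 5) in 16L adults and 237 ± 100.4 (SD, n = 5) in 8L adults, with a log2 fold change of 0.87 (SE 0.34, adjusted p = 1.00 from edgeR).

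Of the MAP kinase and protein kinase D genes 9 of 11 were found and at most 7 tested, and of the salt-inducible kinases and their CREB coactivators 4 of 6 were found and at most 4 tested, with 0 called in either. MAPK14 and MAPK11, both p38 kinases, had group means from 18.6 to 29.7 CPM and from 16.3 to 42.2 CPM, and PRKD3, a protein kinase D, from 21.9 to 47.1 CPM. SIK2 and SIK3, kinases of class IIa deacetylases, had group means from 34.5 to 51.8 and from 6.81 to 29.2 CPM, and CRTC1, a CREB coactivator, from 60.0 to 87.5 CPM. SRF, the related MADS-box factor, had a count in 14 birds and was too low to be tested.

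Among coactivators and partner factors, 12 of 17 were found and at most 8 tested, and 0 were called between any pair of groups. TEAD1, a partner of MEF2 in muscle, had group means from 404 to 594 CPM, the acetyltransferase gene CREBBP from 84.1 to 237 CPM and NCOA2, a nuclear receptor coactivator, from 83.6 to 136 CPM. For age across photoperiods 1 of 8 tested was lower in juveniles, where 2% of all genes were called: MYOCD, the coactivator myocardin of smooth and heart muscle, had 38 to 156 counts in 7 of 10 adults and a single count in 1 of 9 juveniles (adjusted p = 0.00324 from edgeR). The other 3 adults had 0 counts of MYOCD, so that the ages overlapped. Only adults carried MYOCD past the filter on low counts, so that its call is a description and gives no separate support.

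Of the genes known as MEF2 targets in other tissues 15 of 19 were found and at most 4 tested, with 0 called between any pair of groups. NR4A3 and FOS, immediate early genes, had group means from 45.4 to 73.7 and from 16.4 to 48.7 CPM. For age across photoperiods 1 of 4 tested was higher in juveniles, where 2% of all genes were called: COL10A1, the collagen of hypertrophic cartilage and a MEF2C target in mouse chondrocytes, stood at 1.05 to 5.67 CPM in adults and at 0 to 612 CPM in juveniles (log2 fold change 4.41, SE 1.05, adjusted p = 0.0268 from edgeR). The bone-rich juveniles held the values of 612 and 269 CPM, and COL10A1 in the other 7 juveniles ran from 0 to 17.2 CPM. Only juveniles carried COL10A1 past the filter on low counts, so that its calls are descriptions and give no separate support. COL10A1 was also the 1 of 4 called among the 4 groups (adjusted p = 0.00198 from edgeR, with 1.41% of all genes called). Without the bone-rich juveniles COL10A1 passed neither test. There edgeR gave it adjusted p = 0.0734 for age (log2 fold change 2.01, SE 0.56) and 0.369 among the 4 groups. MYOCD, with 0 counts in both bone-rich juveniles, stayed below the threshold for age (adjusted p = 0.0161 from edgeR). Leaving these birds out could hardly change the call of MYOCD, which still gives no separate support. Over the tested genes of each list, the median log2 fold change for age was -0.49 for deacetylases and corepressors, 0.13 for calcium and calcineurin, -0.05 for MAP kinases, -0.23 for salt-inducible kinases, -0.25 for coactivators and 0.56 for targets, beside -0.18 over all genes. For photoperiod in adults these medians lay between -0.29 and 0.21, beside 0.02 over all genes.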

How the data were processed

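The authors amplified pituitary cDNA by PCR with a barcoding kit, sequenced it on a GridION, and deposited estimated counts per transcript; the submitters' processing notes name minimap2 and Salmon, with no versions. Over 99% of values were whole numbers. None of the 63260 transcript accessions occurs in the quail annotation at hand (assembly Coturnix japonica 2.1), which holds 11430 of the 19562 symbols, so chromosomes are named by symbol from it, and no coordinates or sequences are given. Transcripts were summed per symbol and rounded. Each comparison was fitted on its own groups with edgeR 4.0.16 (filterByExpr, minimum 10 and total 15, TMM, quasi-likelihood with legacy=TRUE; limma 3.58.1, R 4.3.3), with Benjamini-Hochberg adjustment over all genes tested at 0.05; photoperiod and age across groups carried the other factor as a term. Likeness was ranked on log2 CPM (prior count 2) for members with a median of at least 10 counts in the highest transcript, over genes whose symbol does not start with LOC. DESeq2 1.42.0 served as an alternative, and the steps were tested on simulated data. Figures used Python 3.11.15 and matplotlib 3.10.9.

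The named genes are the members, and from each list of related genes the 3 with the highest mean CPM and any that was called, and for likeness the 5 genes closest to a member; 3 genes that these rules take are not reported here. MYOCD and COL10A1, called in no comparison of a pair of groups, and CAMK2D's fit were singled out after their values were seen. The members and lists were chosen with earlier results of these data known. Replicate numbers come from the sample titles; deviations of birds with the same number correlated between -0.104 and 0.0979, so the numbers pair no birds. Sexes are as the study lists them. Markers of glia and neurons (14 of 16 found) summed to between 431 and 1317 CPM and those of red blood cells (5 of 9 found) to between 273.5 and 8418 CPM.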

Additional observations from a re-analysis of the deposited data

Results flagged for a closer look

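MEF2D in 16L juvenile 1 stood far above the other 3 birds of its group, at 455.5 CPM against 0, 0 and 3.68 CPM. Its gap to the nearest bird was 0.992 of the range of the group. Of 16 groups of values looked at in this way, 1 stood out, where chance alone gives about 1 in 20. The 455.5 CPM came from 109 summed counts over 34 transcripts, with 4 in the highest transcript, in a library of 196965 counts.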

How the results depend on the processing

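Of 320 recomputed counts of called MEF2 genes, transcripts or transcript use, 315 stayed as reported. The reported counts were 0, and few of all features were called, so that staying at 0 was the likely outcome. Many of these fits also share most of their birds. The tally therefore says little about stability. Without the 5 libraries under 200000 counts 1 MEF2 gene, MEF2D, was called between ages under 16L, among the 4 groups and for the interaction. In these fits 16L juveniles 3 and 4 stood alone for their group, with 0 and 1 counts in the highest transcript. Where 8L juveniles entered, only 8L juveniles 1, 2 and 5 were left, among them the bone-rich pair. Between juvenile photoperiods the same setting gave MEF2D -6.88 (SE 1.22, unadjusted p = 0.00128 and adjusted p = 0.976 from edgeR). Leaving out single birds gave 0 to 1 called MEF2 genes between ages under 16L and 0 to 8 called MEF2 transcripts between ages under 8L. Shares of all genes or transcripts called in these fits are not given here. The cause of these calls was not tested. None of the 37 log2 fold changes that turned direction had passed the test. Without the bone-rich 8L juveniles, MEF2C turned to 0.46 for juvenile photoperiods, -0.65 between ages under 8L, 0.27 for photoperiod across ages, -0.42 for age across photoperiods and 0.37 for the interaction, and MEF2A to 0.0255 for photoperiod across ages. With the highest transcript of each gene as well, MEF2C turned to -0.37 between ages under 8L, 0.22 for photoperiod, -0.28 for age and 0.26 for the interaction, and MEF2A to 0.0621 for photoperiod. Between ages under 16L MEF2A turned to 0.0502 with at least 10 counts in every library of a group and to 0.58 without shallow libraries. With the highest transcript of each gene it turned to 0.21. In listed males MEF2A turned to 0.55 and MEF2D to 0.0511. With listed sex as a term they turned to 0.55 and 0.0925. HINTW counts go against the listed sex of 16L juveniles 2 and 3, so fits by listed sex may not separate the sexes. With limma-voom MEF2A turned to -0.084 between ages under 8L and to -0.47 for age across photoperiods, and MEF2D to -1.65 for age across photoperiods. Photoperiod across ages gave 0.021 for MEF2A in listed males and -0.45 for MEF2D without shallow libraries, and age across photoperiods gave -0.79 for MEF2D without them. Leaving out 1 bird at a time, MEF2A ran from -0.090 to 0.29 and MEF2C from -0.013 to 0.22 for adult photoperiods, MEF2A from -0.80 to 0.33 and MEF2C from -0.53 to 0.038 between ages under 16L, and MEF2D from -0.57 to 0.47 for photoperiod and from -0.57 to 0.54 for age across groups. In fits that took the replicate number as a block, although the numbers pair no birds, 0 MEF2 genes were called in any comparison and MEF2D turned to -0.14 for age across photoperiods. The median of all genes moved by more than 0.1 in 18 fits, by up to -0.55 without a filter between ages under 16L. Transcript fits between juvenile photoperiods gave no value with all birds, as no MEF2 transcript passed the filter there. Fits by the highest transcript, fits without the bone-rich juveniles, both together and the transcript sets of MEF2C were chosen after seeing the data. Depth limits MEF2D above all: its highest transcript had 0 to 12 counts in juveniles.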
